A study of Mus musculus with 17 samples.

Results

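The 7 genes described here cover the creatine phosphate system of the heart: the creatine kinases Ckm, Ckmt2, Ckb and Ckmt1, the enzymes of creatine synthesis Gatm and Gamt, and the creatine transporter Slc6a8. They were named for their function, and all 7 had a row among the 31647 features of the count table. Transcripts were counted at their 3' ends in 17 hearts of male wild-type C57BL/6J mice, young adults at surgery. In 9 of these mice the LAD, the left anterior descending branch of the coronary arteries, had been tied off for good to induce myocardial infarction (MI), and RNA came from the dissected infarct zone 5d post-MI. The other 8 had the same operation without ligation (sham), and RNA came from left ventricular tissue after the same 5 days. All mice shared isoflurane anaesthesia and buprenorphine, and no reperfusion followed the ligation, so the infarct zone is a model of a persistent occlusion. Both groups were bulk tissue, in which fewer cells of a type and less RNA per cell cannot be told apart.

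Creatine kinases move a phosphate group between ATP and creatine, and the product, phosphocreatine, buffers ATP in cells with sudden energy demand. In heart muscle the mitochondrial form, encoded by Ckmt2, sits beside the nucleotide translocase of the inner membrane and makes phosphocreatine where ATP is produced. The cytosolic muscle form, encoded by Ckm, turns it back into ATP at the myofibrils, where part of the enzyme is held at the M-band of the sarcomere. Ckb encodes the brain-type cytosolic form of neurons, smooth muscle and many other cells, and Ckmt1 the ubiquitous mitochondrial form. Cardiomyocytes are known to make little creatine themselves and to take it up from blood through the transporter encoded by Slc6a8, while Gatm and Gamt carry out the successive steps of synthesis, mainly in kidney and liver.

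Ckm lies on chromosome 7 (chr7:19404776-19422841, plus strand), Ckmt2 on chromosome 13 (chr13:91853387-91876885, minus strand), Ckb on chromosome 12 (chr12:111669361-111672338, minus strand) and Ckmt1 on chromosome 2 (chr2:121357714-121363737, plus strand) of GRCm38. Gatm shares chromosome 2 (chr2:122594467-122611303, minus strand), Gamt lies on chromosome 10 (chr10:80258151-80261012, minus strand) and Slc6a8 on chromosome X (chrX:73673150-73682502, plus strand). The kinases are related but distinct in sequence. Ckm and Ckb, both with 1146 coding bases, were identical at 76.4% of aligned coding bases, Ckmt2 and Ckmt1 at 73.3%, and cytosolic and mitochondrial forms at 68.5% to 69.3%. Among the 3' ends of the 7 genes, Ckb alone had a near-identical match in the annotated transcripts of other genes. This was Gm12892, which matched at 98.7% over 298 bases and reached 21 counts at most. An antisense gene opposite Ckm, A930016O22Rik, reached 7 counts at most, and Strc, which overlaps Ckmt1 by 10 bases on the other strand, reached 2. The antisense gene opposite Ckmt2, 1700119I11Rik, had no row of its own in the count table. Whether the counting used strand is not given in the sources used here.

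The start regions of the 3 kinase genes on which the results turn are shown because these genes moved in opposite directions. They run from 250 bases before to 50 bases after the RefSeq start (GRCm38.p6), 5′ to 3′ on the strand of the gene, at chr7:19410844-19411143 (plus strand) for Ckm, chr13:91876836-91877135 (minus strand) for Ckmt2 and chr12:111672289-111672588 (minus strand) for Ckb. Capitals mark matches on either strand to the E-box (CANNTG), the CCAAT box (CCAAT), the GC box (GGGCGG), the TATA box (TATAAA) or the MEF2 site.
Ckm: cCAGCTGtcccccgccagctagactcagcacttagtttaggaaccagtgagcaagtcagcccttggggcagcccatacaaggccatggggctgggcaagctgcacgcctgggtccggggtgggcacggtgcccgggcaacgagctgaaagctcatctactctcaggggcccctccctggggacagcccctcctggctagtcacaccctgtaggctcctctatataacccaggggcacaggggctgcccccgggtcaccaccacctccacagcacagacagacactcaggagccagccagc
Ckmt2: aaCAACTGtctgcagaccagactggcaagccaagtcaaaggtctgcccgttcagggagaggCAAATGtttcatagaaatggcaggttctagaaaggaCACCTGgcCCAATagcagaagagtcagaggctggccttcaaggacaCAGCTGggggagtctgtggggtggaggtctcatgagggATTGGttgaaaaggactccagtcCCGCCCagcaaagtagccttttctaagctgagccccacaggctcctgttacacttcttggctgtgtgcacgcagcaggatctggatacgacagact
Ckb: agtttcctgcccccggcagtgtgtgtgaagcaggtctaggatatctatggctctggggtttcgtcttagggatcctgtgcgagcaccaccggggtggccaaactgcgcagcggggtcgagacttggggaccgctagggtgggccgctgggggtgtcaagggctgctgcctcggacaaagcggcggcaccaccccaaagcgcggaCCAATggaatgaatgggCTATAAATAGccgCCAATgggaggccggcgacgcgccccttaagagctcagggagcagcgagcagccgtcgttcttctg

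Ckm held 1 E-box and none of the other motifs in this window. Ckmt2 held 4 E-boxes, 2 CCAAT boxes and 1 GC box. Ckb held no E-box, 2 CCAAT boxes, and 1 TATA box that lies within its 1 MEF2 site. The E-box is a common match, found in 72.3% of the 32851 promoters of the RefSeq table, against 37.4% for the CCAAT box, 35.7% for the GC box, 13.6% for the TATA box and 3.19% for the MEF2 site. Gatm had 1 E-box and 2 CCAAT boxes, and Gamt 1 E-box and 4 GC boxes. These are letter matches and were not tested for use in the heart.

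Total counts ran from 1820809 to 4257919 in the sham libraries and from 1237675 to 4738307 in the infarct zone. The tissue label held, since all 12 cardiomyocyte markers were counted in both groups, with a summed level of 81923 to 97174 CPM (counts relative to a library size scaled by the trimmed mean of M values) in sham. The infarct zone libraries held 3636 to 8508 CPM of these markers except replicate 1, which held 36222 CPM. That library also stood apart in the share of mitochondrially encoded counts, 19.5% against 4.22% to 6.78% in the other infarct zone libraries and 22.9% to 32.4% in sham. Fibroblast markers summed to 1392 to 2666 CPM in sham against 10422 to 18441 CPM in the infarct zone, and macrophage markers to 374 to 542 CPM and 2151 to 5533 CPM. The fold changes of Ckm and Ckmt2, the summed kinase level and the share of Ckmt2 are given with and without replicate 1. Other values include that library unless stated otherwise. The labels gave no batch or date and do not say how the libraries of a group are related beyond their numbers, so p-values measure the spread between these samples.

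Counts of the muscle kinases fell steeply 5d post-MI, while brain-type kinase and synthesis transcripts were higher and the transporter showed no detectable change. Of the 7 genes, 6 passed the filter on low counts, and 5 of them differed from sham at an adjusted p below 0.05 in edgeR's quasi-likelihood test. Over all 12301 genes tested, 69.5% were called, so the number of members called is not a result about them. The 3 members called higher stand against 36.3% of all genes, and the 2 called lower against 33.1%. The median log2 fold change of the 6 was 0.30, against 0.05 over all genes tested. Scaling by total counts alone moved that median of all genes by 1.09 and is named below where it turns a direction.

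**Figure D1:**
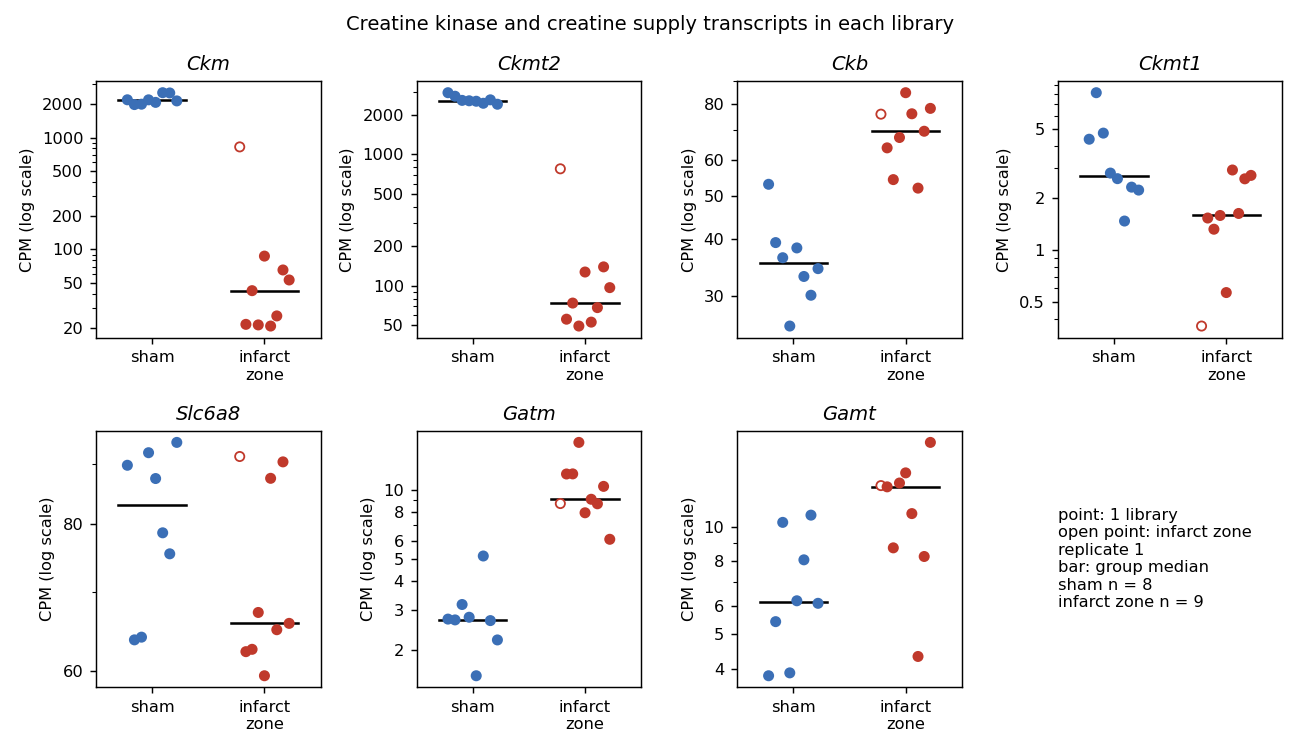
CPM of each gene on a log scale in the 8 sham and 9 infarct zone libraries. Each point is 1 library, the bar is the group median, and the open point is infarct zone replicate 1. Ckm and Ckmt2 of every infarct zone library lie below every sham library, and Gatm of every infarct zone library lies above.

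Ckm, the cytosolic muscle kinase, had 1969, 2147 and 2513 CPM in the lowest, median and highest sham library. The infarct zone libraries had 20.7, 42.9 and 824 CPM. Every infarct zone library lay below every sham library, and the highest value belonged to replicate 1, with no other above 87.2 CPM. Sham libraries averaged 2187 ± 212 CPM (SD, n = 8). The infarct zone averaged 129 ± 262 CPM (SD, n = 9), and 42.2 ± 24.8 CPM without replicate 1 (SD, n = 8). The log2 fold change was -4.08 ± 0.67 (SE), 16.96-fold lower, with an adjusted p of 9.26e-06 in edgeR's test. Without replicate 1 it was -5.77, a 54.7-fold difference, so that 1 library changed the size but not the direction. Behind these levels stood 2506 to 6491 counts per sham library and 47 to 2275 per infarct zone library.

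Ckmt2, the mitochondrial muscle kinase, was the most abundant of the 7 in sham, with 2404, 2563 and 2942 CPM as lowest, median and highest value. Its infarct zone values were 49.5, 74.0 and 776 CPM. Again no value overlapped with sham and replicate 1 was the highest, the next reaching 139 CPM. Means were 2602 ± 175 CPM (SD, n = 8) and 160.1 ± 233 CPM (SD, n = 9), the latter 83.1 ± 34.7 CPM without replicate 1 (SD, n = 8). The log2 fold change of -4.02 ± 0.49 (SE), 16.3-fold lower, had an adjusted p of 1.37e-07 in edgeR's test and was -5.02, 32.6-fold lower, without replicate 1. Among all genes tested, 16.5% had every infarct zone library below every sham library, as these 2 genes did. All 12 cardiomyocyte markers were lower too, and their summed level moved with both genes, but what part it had in their fall was not tested.

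Ckb, the brain-type kinase, moved the other way. Sham libraries had 25.6, 35.4 and 53.1 CPM as lowest, median and highest value, on 45 to 97 counts. The corresponding infarct zone values were 52.1, 69.7 and 85.0 CPM, on 96 to 460 counts. In 8 of the 9 infarct zone libraries the level exceeded the whole sham range, and in the other it was just under the highest sham value. Averages were 36.3 ± 8.12 CPM for sham (SD, n = 8) and 69.3 ± 11.03 CPM for the infarct zone (SD, n = 9). Ckb was thus 1.91-fold higher, a log2 fold change of 0.93 ± 0.13 (SE) with an adjusted p of 1.61e-06 in edgeR's test. Replicate 1, with 76.1 CPM, lay among the other infarct zone libraries for this gene. Of the fibroblast markers 5 of 6 were higher, and of the macrophage markers 6 of 6. The part of these cells in the Ckb level was not tested.

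Ckmt1, the ubiquitous mitochondrial kinase, was near the limit of detection. It had 1.47, 2.69 and 8.14 CPM as lowest, median and highest sham value and 0.362, 1.58 and 2.90 CPM in the infarct zone, on 2 to 12 and 1 to 11 counts. The groups overlapped, with 3 of the 9 infarct zone libraries below every sham library. It did not pass the filter on low counts of the main test. DESeq2's Wald test gave a log2 fold change of -1.06 ± 0.41 (SE) with an adjusted p of 0.0186, and edgeR without the filter gave -0.98 ± 0.42 (SE) with an adjusted p of 0.0642. At this depth the direction of Ckmt1 rests on a few counts per library.

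Creatine synthesis begins with Gatm, which transfers the amidino group of arginine to glycine. Its sham values were 1.55, 2.73 and 5.15 CPM as lowest, median and highest, on 3 to 7 counts, and it passed the filter through its infarct zone libraries. Those had 6.08, 9.08 and 16.0 CPM, on 14 to 84 counts. All 9 of these values exceeded the whole sham range, a pattern found in 16.6% of all genes tested. With means of 2.88 ± 1.04 CPM (SD, n = 8) and 10.02 ± 2.88 CPM (SD, n = 9), Gatm was 3.62-fold higher. The log2 fold change was 1.86 ± 0.25 (SE) with an adjusted p of 5.68e-07 in edgeR's test. Although higher, Gatm remained a scarce transcript. Of the kidney tubule list, Slc34a1 had a row and stood at 0 counts in all 17 libraries.

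Gamt, which methylates the product of the Gatm reaction to creatine, had 3.83, 6.16 and 10.8 CPM as lowest, median and highest sham value. Its infarct zone values were 4.34, 12.9 and 17.2 CPM. The ranges overlapped widely, with 6 of the 9 infarct zone libraries above every sham library and the lowest among the lower sham libraries. Means were 6.83 ± 2.66 CPM (SD, n = 8) and 11.4 ± 3.83 CPM (SD, n = 9), on 7 to 28 and 8 to 93 counts, and Gamt too passed the filter through its infarct zone libraries. The log2 fold change was 0.75 ± 0.25 (SE), 1.69-fold higher, with an adjusted p of 0.0107 in edgeR's test. Of the members called, Gamt had the smallest change and the largest adjusted p.

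Slc6a8, the creatine transporter, had 63.8, 83.1 and 93.9 CPM as lowest, median and highest sham value and 59.5, 65.9 and 91.3 CPM in the infarct zone. The groups overlapped over most of their range, and 3 of 9 infarct zone values were under the whole sham range. Averages were 80.6 ± 12.1 CPM for sham (SD, n = 8) and 72.4 ± 13.2 CPM for the infarct zone (SD, n = 9). The log2 fold change was -0.16 ± 0.12 (SE), with a 95% interval from -0.40 to 0.08 and an adjusted p of 0.242 in edgeR's test. Leaving out infarct zone replicate 1 gave -0.25, with an adjusted p of 0.0520 in the same test, just above the threshold. A change was therefore not detectable, and the interval leaves room for a modest decrease. Scaling by total counts alone gave 0.91 with an adjusted p of 2.48e-07, less than the shift of 1.09 in the median of all genes under that scaling. Ckm, Ckmt2, Ckb, Gatm and Gamt kept their directions under every scaling tried.

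The order of the 7 genes changed between the groups. Counting 3' ends yields a tag per transcript whatever its length, so CPM was compared between genes without division by length. In sham, Ckmt2 exceeded Ckm in 7 of 8 libraries with overlapping ranges, and both exceeded Slc6a8, which exceeded Ckb, in 8 of 8. Below them Gamt, Ckmt1 and Gatm had overlapping ranges. Ckmt2 still led Ckm in 8 of 9 infarct zone libraries, but Ckm exceeded Slc6a8 in no more than 2 of 9 and Slc6a8 exceeded Ckb in 5 of 9, with overlapping ranges throughout. Gamt and Gatm followed with overlapping ranges, and Ckmt1 was the lowest in mean level.

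The kinases together made up less of the transcriptome in the infarct zone, and their composition differed. Summed CPM of the 4 kinases was 4564, 4767 and 5172 in the lowest, median and highest sham library and 139.8, 173 and 1677 in the infarct zone. The means of 4828 ± 240.4 (SD, n = 8) and 360.2 ± 498 (SD, n = 9) differed 13.4-fold, with an exact two-sided permutation p of 4.11e-05, the smallest that 8 against 9 libraries allow. Without replicate 1 the infarct zone mean was 196 ± 64.9 CPM (SD, n = 8), 24.7-fold below sham. Ckm and Ckmt2 gave 45.3% and 53.9% of the kinase counts in sham. The sum therefore restates their fall, and its p-value is not separate evidence.

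Within a library, the ratio of 2 kinases does not depend on scaling. Ckb made up 1.17%, 1.70% and 2.39% of the cytosolic kinase counts (Ckb and Ckm) in the lowest, median and highest sham library. Its share was 8.45%, 59.5% and 78.7% in the infarct zone. Even the lowest of these lay above every sham library. It belonged to replicate 1, with 210 of 2485 counts (95% Clopper-Pearson interval 7.39% to 9.61%), whereas the other 8 libraries ranged from 49.3% (150 of 304 counts, 43.6% to 55.1%) to 78.7% (210 of 267 counts, 73.2% to 83.4%). The intervals cover counting error only. The share averaged 1.65% ± 0.425 for sham (SD, n = 8) and 57.95% ± 21.5 for the infarct zone (SD, n = 9), a difference of 56.3 percentage points with an exact two-sided permutation p of 8.23e-05. Ckb counts thus exceeded Ckm counts in 7 of 9 infarct zone libraries and in no sham library. In 1 of these 7, replicate 8, the interval (45.3% to 57.7%) included an equal share. Ckmt2 is not part of this comparison. The share also rises where Ckm falls and Ckb stays the same, so its p-value does not bear on whether Ckb rose.

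**Figure D2:**
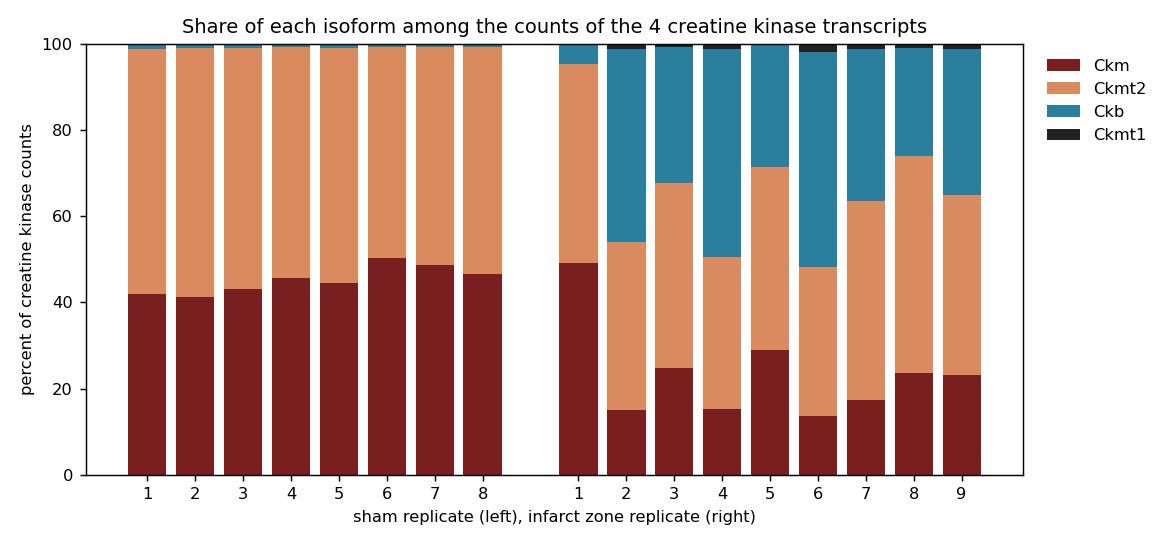
Percent of the counts of the 4 creatine kinase transcripts taken by each isoform, 1 bar per library, sham replicates on the left and infarct zone replicates on the right. Ckb takes 0.540% to 1.03% in sham against 4.54% to 49.9% in the infarct zone, with the lowest share in replicate 1.

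Of all 4 kinases, Ckm gave 45.3% ± 3.21 of the counts, Ckmt2 53.9% ± 3.06, Ckb 0.751% ± 0.155 and Ckmt1 0.0745% ± 0.0452 in sham (SD, n = 8). The infarct zone shares were 23.4% ± 11.02 for Ckm, 42.1% ± 5.15 for Ckmt2, 33.5% ± 14.0 for Ckb and 0.920% ± 0.558 for Ckmt1 (SD, n = 9). Each share is taken of a kinase sum that was lower in the infarct zone. Ckmt1 had the higher share there at a lower mean level, 1.69 CPM against 3.58 CPM in sham. Ckm and Ckmt2 fell by unequal amounts. Ckmt2 made up 49.3%, 54.6% and 58.4% of the counts of the muscle forms (Ckmt2 and Ckm) as lowest, median and highest share in sham, and 48.5%, 68.0% and 72.8% in the infarct zone. In 8 of 9 infarct zone libraries the share exceeded every sham library, and in replicate 1 it was below every sham library. The mean rose from 54.4% ± 3.17 (SD, n = 8) to 65.6% ± 7.90 (SD, n = 9), by 11.3 percentage points with an exact two-sided permutation p of 0.00325. Leaving out replicate 1, the difference was 13.4 points with a p of 1.55e-04 by the same exact test.

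Set against heart muscle markers, the muscle kinases fell further than the markers did as a sum. Levels relative to cardiomyocytes were taken as the log2 ratio of a gene's counts to the summed counts of the 12 markers, with a pseudocount of 1. Ckm ratios were -5.48, -5.40 and -5.24 as lowest, median and highest in sham and -8.09, -7.18 and -5.46 in the infarct zone. Here 8 of 9 infarct zone values were under the whole sham range, and replicate 1 was within it. The mean difference was -1.66, a 3.16-fold lower ratio, with an exact two-sided permutation p of 1.65e-04, the same after adjustment over the 6 genes compared. Ckmt2 ratios were -5.31, -5.11 and -4.94 in sham and -6.75, -6.14 and -5.54 in the infarct zone, with no overlap. Their mean difference was -0.97, a 1.95-fold lower ratio, with an exact permutation p of 8.23e-05 and an adjusted p of 9.87e-05. A ratio of this kind shows unequal change and not which of its parts moved.

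**Figure D3:**
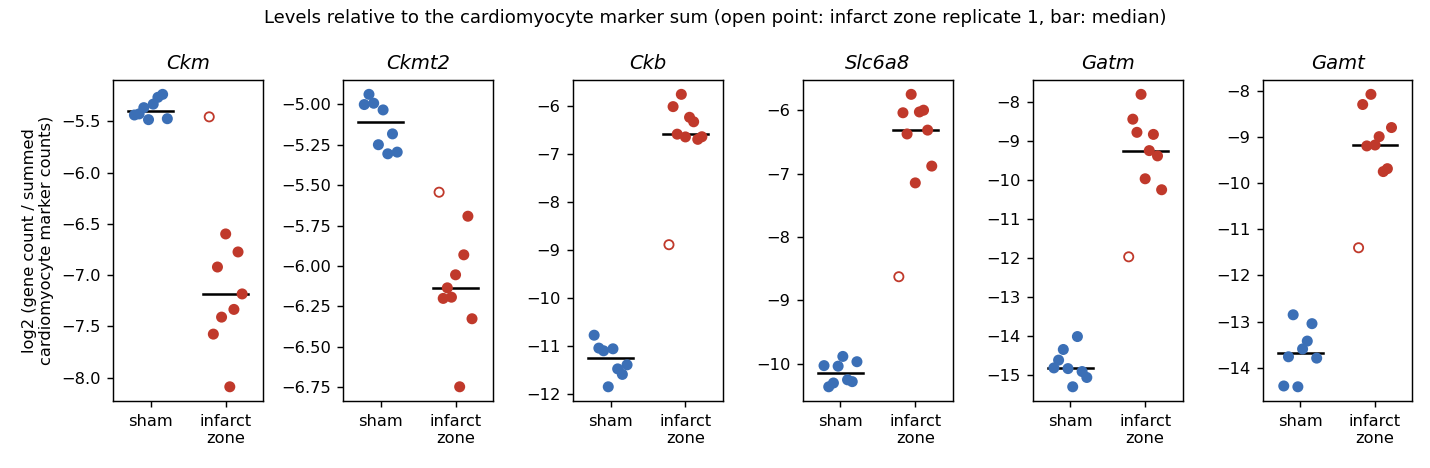
Log2 ratio of each gene's counts to the summed counts of 12 cardiomyocyte markers in each library, with the group median as a bar and infarct zone replicate 1 as an open point. Ckm and Ckmt2 ratios differ between the group means by -1.66 and -0.97, the ratios of the other 4 genes are higher in 9 of 9 libraries, and replicate 1 lies nearest to sham in every panel.

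The markers differed among themselves. Their log2 fold changes ran from -4.19 for Tnni3, cardiac troponin I, to -2.12 for Actc1, cardiac actin, with a median of -3.29, or -3.97 without replicate 1. Ckm and Ckmt2 each fell more than 11 of the 12, all but Tnni3, and without replicate 1 more than all 12. The margins were small against the standard errors, with Myl2 at -3.97 ± 0.51 (SE) beside -4.08 ± 0.67 for Ckm and -4.02 ± 0.49 for Ckmt2. Without replicate 1, Ckmt2 stood at -5.02 beside -5.00 for Tnni3 and -4.96 for Myl2, and Ckm at -5.77. These ranks were not tested. Relative to the marker sum, Ckb was 4.66 higher on the log2 scale, Gatm 5.32, Gamt 4.39 and Slc6a8 3.56, each with 9 of 9 infarct zone values over the whole sham range and an exact permutation p of 8.23e-05 (adjusted p 9.87e-05). For Slc6a8 this meant an 11.8-fold higher ratio at a CPM that did not detectably differ, the ratio following the fall of the marker sum. A gene whose own level stayed the same would be set apart in this way too. The p-values of these 4 ratios therefore do not bear on whether Ckb, Gatm or Gamt rose.

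Within the infarct zone the muscle kinases varied together. Over the 9 libraries, log2 CPM of Ckmt2 and Ckm had a Pearson r of 0.99 (exact permutation p = 2.48e-05, adjusted p = 1.24e-04 over 5 relations) and a Spearman rho of 0.97 (exact permutation p = 1.65e-04, adjusted p = 8.27e-04). Without replicates 1 and 6, the farthest from the median of Ckm, r was 0.95 (exact permutation p = 0.00179, adjusted p = 0.00893). These libraries also differ in cardiomyocyte marker content, whose part in the relation was not tested.

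The other genes showed no relation to Ckm that passed the threshold. Ckb had r = 0.40 (exact permutation p = 0.297, adjusted p = 0.418) and rho = 0.37 (p = 0.336, adjusted p = 0.560). Gatm had r = -0.35 (exact permutation p = 0.335, adjusted p = 0.418) and rho = -0.48 (p = 0.194, adjusted p = 0.484). Gamt had r = 0.25 (exact permutation p = 0.472, adjusted p = 0.472) and rho = 0.22 (p = 0.581, adjusted p = 0.726), and Slc6a8 had r = 0.44 (p = 0.246, adjusted p = 0.418) and rho = 0.10 (p = 0.810, adjusted p = 0.810). Without replicates 1 and 6, r was 0.61 for Ckb, -0.59 for Gatm, 0.23 for Gamt and 0.21 for Slc6a8. With 9 libraries, relations of this size could not be told from none.

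**Figure D4:**
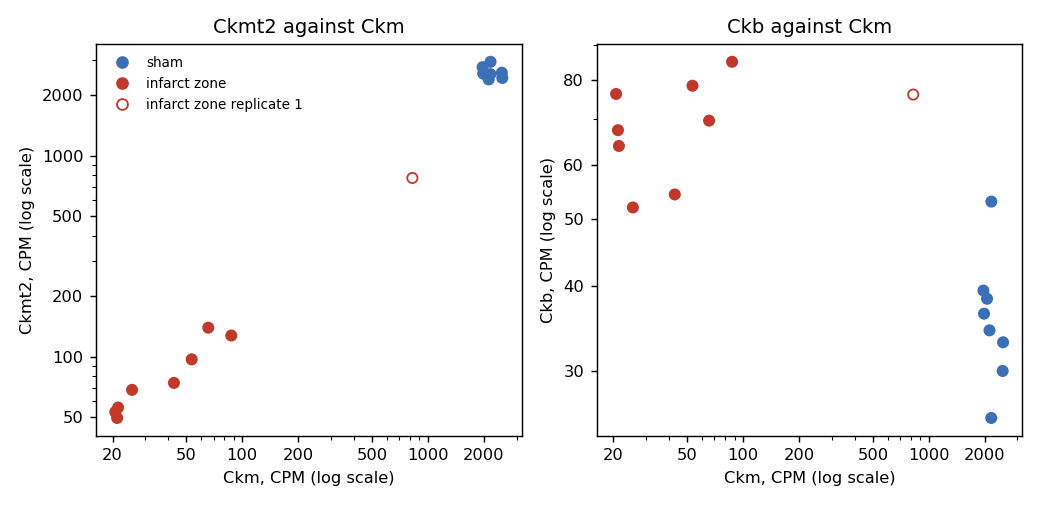
CPM of Ckmt2 (left) and Ckb (right) against CPM of Ckm, both axes on a log scale, 1 point per library with infarct zone replicate 1 open. Ckmt2 follows Ckm within the infarct zone (r = 0.99, n = 9), and Ckb there lies between 52.1 and 85.0 CPM over a wide range of Ckm.

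Genes most like Ckm and Ckb were sought among the 6361 genes that averaged 20 CPM or more, by the Pearson r of log2 CPM deviations from the group means over the 17 libraries. Nearest to Ckm were Myl3, a ventricular myosin light chain, with r = 0.995, Slc25a4, the heart nucleotide translocase, with 0.987, and Fabp3, the heart fatty acid binding protein, with 0.986. Without infarct zone replicate 1 these were 0.976, 0.947 and 0.931. Nearest to Ckb were Tbc1d17 (0.830, and 0.825 without replicate 1), Gstm2 (0.773 and 0.801) and Fam173a (0.756 and 0.755). The libraries share their depth and scaling in these values, which are a description and carry no test.

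Of 52 genes from 7 lists of neighbouring pathways, 40 passed the filter, with 9 higher, 23 lower and 8 not called, and a median log2 fold change of -0.69. Over all genes tested 69.5% were called, 36.3% higher and 33.1% lower, so the number called is not a result about these lists. Under total counts alone the same 40 gave 22 higher and 12 lower, and 12 of them changed sign.

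**Figure D5:**
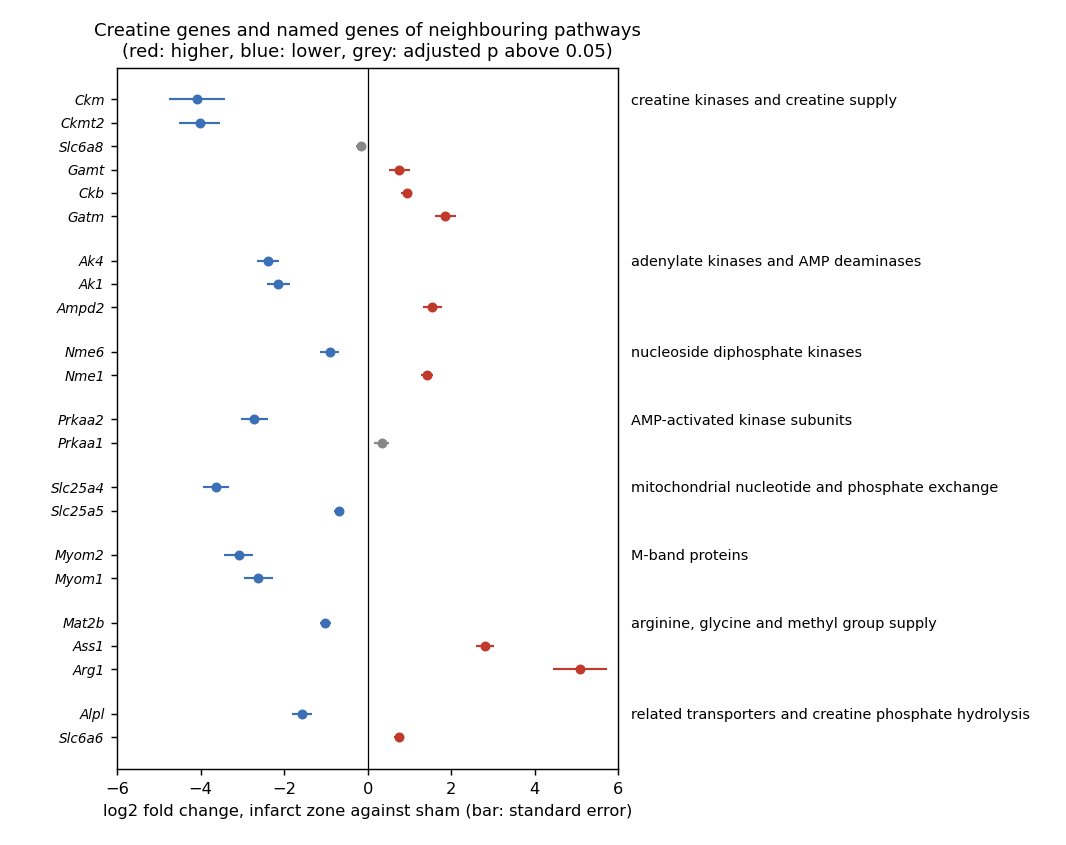
Log2 fold change of infarct zone against sham for the 6 tested creatine genes and the 16 named genes of neighbouring pathways, with the standard error as a bar, red for higher, blue for lower and grey for an adjusted p above 0.05. Ckm and Ckmt2 lie at -4.08 and -4.02, lower than every pathway gene shown.

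All 6 tested genes of mitochondrial nucleotide and phosphate exchange were lower (median log2 fold change -1.76), or 1 higher and 4 lower under total counts alone. Slc25a4, the translocase to which mitochondrial creatine kinase couples, had 7769, 8452 and 9361 CPM as lowest, median and highest sham value and 390.2, 518 and 2053 CPM in the infarct zone. Its log2 fold change was -3.63 ± 0.31 (SE), with an adjusted p of 6.18e-10 in edgeR's test. Slc25a5, the translocase form of many cell types, changed less, by -0.69 ± 0.13 (SE) with an adjusted p of 4.29e-05, from 185 ± 22.5 CPM (SD, n = 8) to 114 ± 21.8 CPM (SD, n = 9), and turned to 0.39 under total counts alone.

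The M-band genes, whose proteins include docking partners of cytosolic muscle kinase, included Myom1 and Myom2. Myom1, myomesin, fell by 2.62 ± 0.35 on the log2 scale (SE, adjusted p 5.27e-07 in edgeR's test), and by 3.28 without infarct zone replicate 1. Myom2 fell by 3.09 ± 0.34 (SE, adjusted p 3.31e-08 in the same test). No infarct zone library reached the sham range of either gene.

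Adenylate kinases, which pass phosphate between adenine nucleotides in parallel with creatine kinase, and AMP deaminases gave 1 higher, 4 lower and 2 uncalled genes of 7 (median -0.69), or 4 higher and 2 lower under total counts alone. Ak1, the cytosolic muscle adenylate kinase, had 260.5, 330 and 444 CPM in the lowest, median and highest sham library and 39.6, 58.6 and 235 CPM in the infarct zone, a log2 fold change of -2.15 ± 0.28 (SE, adjusted p 3.35e-07 in edgeR's test). Lowest was Ak4, a mitochondrial form, at -2.39 ± 0.27 (SE, adjusted p 3.99e-08), and highest Ampd2, an AMP deaminase of non-muscle tissues, at 1.55 ± 0.23 (SE, adjusted p 3.35e-06), which passed the filter through its infarct zone libraries.

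Among AMP-activated kinase subunits, which sense the energy state of the cell, 3 of 6 were lower and none was called higher, against 3 higher and 2 lower under total counts alone. Prkaa2, the catalytic subunit that prevails in muscle, fell by 2.71 ± 0.32 on the log2 scale (SE, adjusted p 8.72e-08 in edgeR's test), from 71.6 ± 23.1 CPM (SD, n = 8) to 11.4 ± 10.3 CPM (SD, n = 9). The alternative catalytic subunit Prkaa1 stood at 0.33 ± 0.17 (SE, adjusted p 0.0931) and passed the threshold without infarct zone replicate 1 (0.39) or without sham replicate 1 (0.41). Nucleoside diphosphate kinases, which spread phosphate to other nucleotides, gave 2 higher, 1 lower and 1 uncalled gene of 4, or 3 higher and 0 lower under total counts alone. Nme1 was highest at 1.42 ± 0.14 (SE, adjusted p 5.11e-09), and Nme6 lowest at -0.91 ± 0.22 (SE, adjusted p 9.55e-04), turning to 0.17 under total counts alone. Nme2 is listed at 0 in all 17 libraries. Whether its reads were lost or assigned elsewhere in the counting was not tested, so this is not read as absent expression.

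Arginine, glycine and methyl group supply, the substrates of Gatm and Gamt, split evenly, with 5 higher, 5 lower and 2 uncalled genes of 12 (median 0.10), and 10 higher and 0 lower under total counts alone. Arg1, the arginase that competes for arginine, had 1.04, 1.66 and 2.78 CPM as lowest, median and highest sham value, on 2 to 6 counts, and 3.26, 37.4 and 192 CPM in the infarct zone, the lowest in replicate 1. Its log2 fold change was 5.09 ± 0.64 (SE, adjusted p 2.38e-07 in edgeR's test), and with any of the other 8 infarct zone libraries left out it no longer passed the filter on low counts. Ass1, which makes the precursor of arginine from citrulline, rose by 2.80 ± 0.21 (SE, adjusted p 1.04e-10), from 2.51 ± 1.03 CPM (SD, n = 8) to 18.6 ± 3.16 CPM (SD, n = 9), on 2 to 10 and 38 to 121 counts. Arg1 and Ass1 both passed the filter through their infarct zone libraries. The lowest value was that of Mat2b, a regulatory subunit of methionine adenosyltransferase, at -1.02 ± 0.13 (SE, adjusted p 2.74e-07), and 0.06 under total counts alone.

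Of the transporters related to Slc6a8 and the phosphatase that can release phosphate outside cells, 2 of 5 genes were tested. Slc6a6, the taurine transporter of the same family, had 54.4, 63.6 and 87.4 CPM as lowest, median and highest sham value and 97.6, 112 and 129 CPM in the infarct zone, without overlap. It rose by 0.74 ± 0.11 on the log2 scale (SE, adjusted p 2.55e-06 in edgeR's test), where Slc6a8 stood at -0.16. Alpl, tissue non-specific alkaline phosphatase, fell by 1.58 ± 0.24 (SE, adjusted p 4.30e-06), from 28.9 ± 8.49 CPM (SD, n = 8) to 10.2 ± 4.31 CPM (SD, n = 9).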

How the data were processed

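Left ventricles of 8 sham and infarct zones of 9 ligated mice were measured. The authors isolated DNase-treated total RNA and prepared 3' end libraries by massive analysis of cDNA ends with unique molecular identifiers. Reads were trimmed with Cutadapt, mapped to mm10 and quantified with HTSeq, and the submitters' processing notes also name bcl2fastq, Bowtie2 and DESeq2. The deposited values are raw counts per feature, without normalisation. The annotation release and strand setting are not given in the sources used here.

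Of 31647 features, 35 were merged groups of overlapping genes (0.116% ± 0.0185 of counts in sham and 0.190% ± 0.0228 in the infarct zone), which stayed in library sizes and tests but were not named. Identifiers were matched to GENCODE M21 (31521 matched). Libraries differed from each other by 2.41 to 252 times sampling noise (chi-square per degree of freedom), so none was a copy.

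The counts were compared with edgeR 4.0.16 under R 4.3.3 (filterByExpr with a minimum of 10 counts, TMM factors 0.613 to 1.54, quasi-likelihood F-test without covariates, two-sided, Benjamini-Hochberg threshold 0.05 over all genes tested). Shares, sums and ratios were compared by exact permutation over 24310 splits and relations over 362880 pairings, with log2 CPM at a prior count of 1. Near-identical 3' ends were sought with BLAST 2.17.0 among GENCODE M21 transcripts, so copies without annotation were not searched. Python 3.11.15, NumPy 2.4.6, pandas 2.3.3, SciPy 1.17.1, Biopython 1.88 and Matplotlib 3.10.9 were used.

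The members and lists were chosen with earlier results of these data known. Named were all members, the highest and lowest tested gene of each list, Ak1, Slc25a4, Slc25a5, Myom1, Myom2, Prkaa2, Arg1, Ass1, Slc6a6, Nme1, Nme2, Alpl, the 3 genes most like Ckm and Ckb, and markers a result turned on. Some results that met this rule are not reported here. The fit was repeated with upper quartile, DESeq2 or total-count scaling, with DESeq2 1.42.0 itself, without the filter, with a minimum mean of 50 counts, without mitochondrially encoded features, with a replicate block, and without each library in turn.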

Additional observations from a re-analysis of the deposited data

Results flagged for a closer look

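In groups of 8 or 9 libraries, the gap between the highest or lowest library and its neighbour was set against the range of the group by Dixon's test. Of 32 groups of values tested, 8 held an outlying library, and 7 of these fell on infarct zone replicate 1, whereas chance alone marks about 1 in 20 groups. These groups share libraries and are not independent. In replicate 1, Ckm stood at 824 CPM and Ckmt2 at 776 CPM, both the highest of the infarct zone, and the summed kinases at 1677 CPM. The share of Ckb among cytosolic kinase counts was 8.45% there, the lowest of the group. Relative to the cardiomyocyte marker sum, the log2 ratios of Ckb (-8.89), Gamt (-11.4) and Slc6a8 (-8.63) in that library were also the lowest of the group and nearest to sham. Cardiomyocyte markers summed to 36222 CPM in this library, against 3636 to 8508 CPM in the other infarct zone libraries, and their part in these values was not tested.

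Gatm stood out in sham replicate 6, with 5.15 CPM, the highest sham value and below every infarct zone library. It rests on a count of 7 at most.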

How the results depend on the processing

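Ckm, Ckmt2, Ckb and Gatm kept their direction and passed the threshold in every fit that tested them, with log2 fold changes of -5.77 to -3.28, -5.02 to -3.14, 0.86 to 2.003 and 1.75 to 2.94. Leaving out 1 library at a time, they ranged from -5.77 to -3.92, -5.02 to -3.88, 0.86 to 1.02 and 1.75 to 1.99. The summed kinase level, both isoform shares and the 6 ratios to cardiomyocyte markers also kept direction and call under every alternative. Scaling by total counts alone reversed Slc6a8 to 0.91, and among relations to Ckm it reversed Ckb to -0.28, Gamt to -0.028 and Slc6a8 to -0.26, none past the threshold. Without infarct zone replicate 1 the relation of Slc6a8 to Ckm was -0.079. The cause was not tested. Under that scaling 85.8% of calls were higher, against 52.3% with TMM.

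Requiring a mean of 50 counts left 3 members, 5239 genes and 21 pathway genes called, since fewer genes were tested. The main counts were 5, 8544 and 32, and 5, 7962 to 8614 and 29 to 33 with 1 library left out at a time. Members called ranged from 3 to 6 over all alternatives, the sixth being Ckmt1 under DESeq2 and Slc6a8 under total counts alone. DESeq2 called 10295 genes.

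Replicate numbers did not pair the samples. Deviations of same-numbered libraries correlated at -0.22 to 0.13, over 0.1 in 1 of 8 pairs, and 1 library correlated best with its own number. With the replicate number as a block, 7883 genes, 4 members and 29 pathway genes were called. Gamt, at 0.67 with an adjusted p of 0.0717 in edgeR's test, was no longer called. The block fit also left out infarct zone replicate 9, whose number no sham library has. Leaving out that library without a block gave 0.68 for Gamt, with an adjusted p of 0.0207 in edgeR's test. Depth limits Ckmt1, at 12 counts or fewer per library, and Gatm in sham, at 7 or fewer.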

Other observations

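Cell types beyond those described above also differed in the infarct zone. Of 4 neutrophil markers, S100a8, S100a9 and Csf3r were tested, and all 3 were called higher, as were 36.3% of all genes tested. No sham library held more than 15, 11 and 3 counts of these genes, which passed the filter through their infarct zone libraries. Retnlg, whose highest count was 3 among sham libraries and 13 among infarct zone libraries, was not tested. Together the 4 markers summed to 3.85 to 11.7 CPM in sham and 14.9 to 210 CPM in the infarct zone. Of 5 endothelial markers, Kdr was lower and the other 4 were not called, while under total counts alone 4 were higher and 1 was lower. Smooth muscle and pericyte markers gave 1 higher and 2 lower genes of 4, or 2 higher and 0 lower under total counts alone, with a summed level of 280 to 500.4 CPM in sham and 143 to 323 CPM in the infarct zone. Of the skeletal muscle markers 1 of 6 was tested, Tnnt3, which was called higher (adjusted p 2.82e-06 in edgeR's test) on 0 to 3 counts per sham library and 4 to 41 per infarct zone library, and so passed the filter through the latter. Myh4 stood at 0 counts in every library, and the sum was 0.679 to 15.1 CPM in sham and 2.83 to 9.42 CPM in the infarct zone. No fat marker was tested, and the fat sum was 0 to 3.11 CPM in sham and 0 to 27.6 CPM in the infarct zone.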
